A study of Mus musculus with 6 samples.

Results

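Cytosolic ribosomal protein genes encode the protein parts of the ribosome that works in the cytosol, and their mRNA levels were compared between dendritic cells given poly(I:C) and untreated ones. The members were chosen by their symbols (Rpl, Rps or Rplp followed by a number, which leaves out pseudogenes and the S6 kinases) and by a mean level of at least 0.5 TPM (a level corrected for transcript length and given as a share of the library, scaled to a fixed total). Of 84 symbols of this form, 80 reached the limit, 49 of the large and 31 of the small subunit, among 12520 genes tested and 32903 symbols in the table. The study treated MuTuDC1940 cells, a line of mouse dendritic cells that resemble the type 1 conventional subset, with poly(I:C), a synthetic double-stranded RNA, at 5 µg/ml for 18 hours, and sequenced their polyadenylated RNA beside that of untreated cells of the same line. The series has 3 treated and 3 untreated samples, and 2 libraries per group were used, headed PolyIC01 and PolyIC02 (treated) and NT01 and NT02 (untreated), because the header of the deposited table has 5 names for 6 value columns and does not settle what the other 2 columns hold. All libraries come from this 1 cell line, and the labels do not tell whether separate cultures were used within a group. Every p-value below reflects library-to-library spread alone, possibly technical.

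A cytosolic ribosome joins a small subunit, which reads the mRNA, to a large subunit, which forms the peptide bonds, and most of its proteins are present in a single copy per ribosome. Their mRNAs are among the most abundant of growing cells. Most begin with a 5′ terminal oligopyrimidine tract (5′TOP), a run of C and T at the very start of the mRNA through which the kinase mTOR and the protein LARP1 set how strongly they are translated; mRNAs of elongation factors carry the same tract.

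Each library sums to 1000000 TPM and its depth is unknown, so no counting interval is given, and a TPM is a share: a lower value may come from fewer copies of that mRNA or from more of other mRNAs. Genes were tested with limma on the log2(TPM + 1) scale, and a gene is said to rise or fall where its adjusted p (Benjamini-Hochberg over all 12520 genes) was under 0.05. The cell type label was checked with 10 markers of type 1 conventional dendritic cells, all at 1 TPM or more on average. Their summed level was 4117 and 4196 TPM in treated and 4421 and 4344 TPM in untreated libraries. Irf8 alone held 2558 and 2639 TPM of these sums in treated and 2482 and 2477 TPM in untreated libraries. Of these 10 markers 5 fell, 4 rose and 1 did not pass, with log2 fold changes from -1.42 (Cd24a) to 0.78 (Xcr1). Of 6 macrophage and monocyte markers 3 reached 1 TPM, with sums of 39.0 and 37.9 TPM in treated and 21.98 and 20.6 TPM in untreated libraries. Markers of plasmacytoid dendritic cells (7.24 to 11.3 TPM), epithelial cells (7.74 to 11.6 TPM), B cells (3.28 to 6.89 TPM), T cells (0.678 to 1.59 TPM) and fibroblasts (0.120 to 0.191 TPM) were low, those of neutrophils were listed at 0 in all 4 libraries, and so were 2 of 3 T cell, 2 of 3 fibroblast, 1 of 3 B cell and 1 of 4 epithelial markers. The sums of macrophage, B cell, T cell and plasmacytoid markers were higher and that of epithelial markers lower in both treated libraries than in both untreated ones, and their part in the results below was not tested. In bulk RNA, fewer cells of a type and less of an mRNA per cell cannot be told apart.

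Ribosomal protein mRNAs were abundant before and after treatment. The median member had 1041 and 1042 TPM in the treated and 1456 and 1477 TPM in the untreated libraries, where the median tested gene had between 16.9 and 17.6 TPM in all 4. The mean over the 4 libraries was at least 1000 TPM for 47 members and under 100 TPM for 6. All 80 lay above 0.5 TPM in every library, so none was tested only because one group was high. The members of the large subunit with the highest mean were Rpl41 (2783 TPM), Rplp1 (2514 TPM) and Rplp0 (2302 TPM), and those of the small subunit were Rps29 (2593 TPM), Rps23 (2297 TPM) and Rps2 (2261 TPM). The lowest member was Rpl3l, a paralog of Rpl3 known from muscle, at 1.10 TPM, and the symbols just under the limit were Rpl32l (0.339 TPM), Rpl39l (0.186 TPM), Rps4l (0.0189 TPM) and Rpl10l (0.00766 TPM). The limit used these means, which are given as a description.

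With poly(I:C), nearly all of these genes fell together, each by less than 2-fold. Of 80 members 74 fell, 1 rose and 5 did not pass in limma. With no filter on low values, which puts all 32903 symbols into the fit, 17 of the 74 kept their call and 73 members were lower at an unadjusted p under 0.05. The share that fell was 92.5% of the members, against 32.4% of all tested genes, and the share that rose among all tested genes was 28.4%. The median log2 fold change of the members was -0.45, a fall of the level by 26.7% on that scale, against -0.02 for all tested genes. The lower and upper quartiles of the members were -0.55 and -0.34, against -0.28 and 0.26 for all tested genes. No member fell 2-fold: the falls ran from -0.88 to -0.12 on the log2 scale. Both treated libraries were below both untreated libraries for 77 members, against 42.4% of all tested genes, above them for 2, and the groups overlapped for 1.

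**Figure D1:**
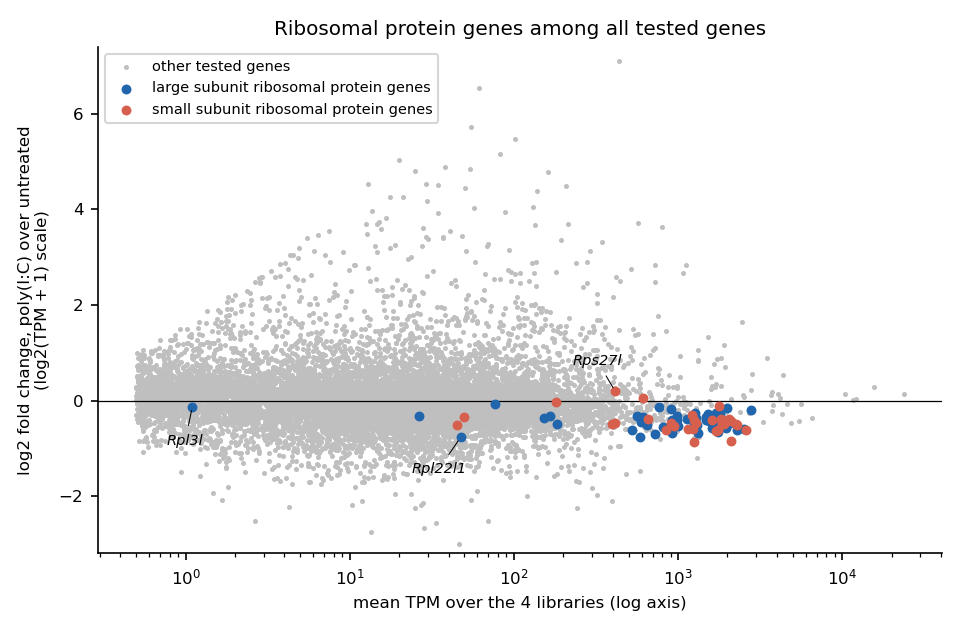
Each point is 1 tested gene, with its mean TPM over the 4 libraries on a log axis and its log2 fold change of poly(I:C) over untreated on the log2(TPM + 1) scale. Ribosomal protein genes of the large (blue) and small (red) subunit lie mostly at the abundant end and below 0, with medians of -0.41 and -0.47, and Rps27l is above 0.

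Other abundant genes moved in both directions. Of the 194 tested non-members at a mean level of 500 TPM or more, 86 fell (44.3%) and 76 rose (median log2 fold change -0.06). Within the members, the log2 fold change followed the mean level only weakly (Spearman's rho -0.17 over 80 genes of the same 4 libraries, a description). The order of the members was kept, with a Spearman's rho of 0.97 between their mean log2 levels in treated and in untreated cells. Members can shift together between replicates, which a test gene by gene does not see. The median member differed by 0.02 on the log2 scale for PolyIC02 minus PolyIC01 and by 0.03 for NT02 minus NT01. The median tested gene differed by -0.02 and -0.04 in these pairs, opposite in sign. Of 80 members 54 were higher in PolyIC02 and 66 in NT02. The shift of the median member between a treated and an untreated library lay far outside these replicate differences, from -0.47 to -0.42 in the 4 pairs. That of the median tested gene lay from -0.05 to 0.02.

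**Figure D2:**
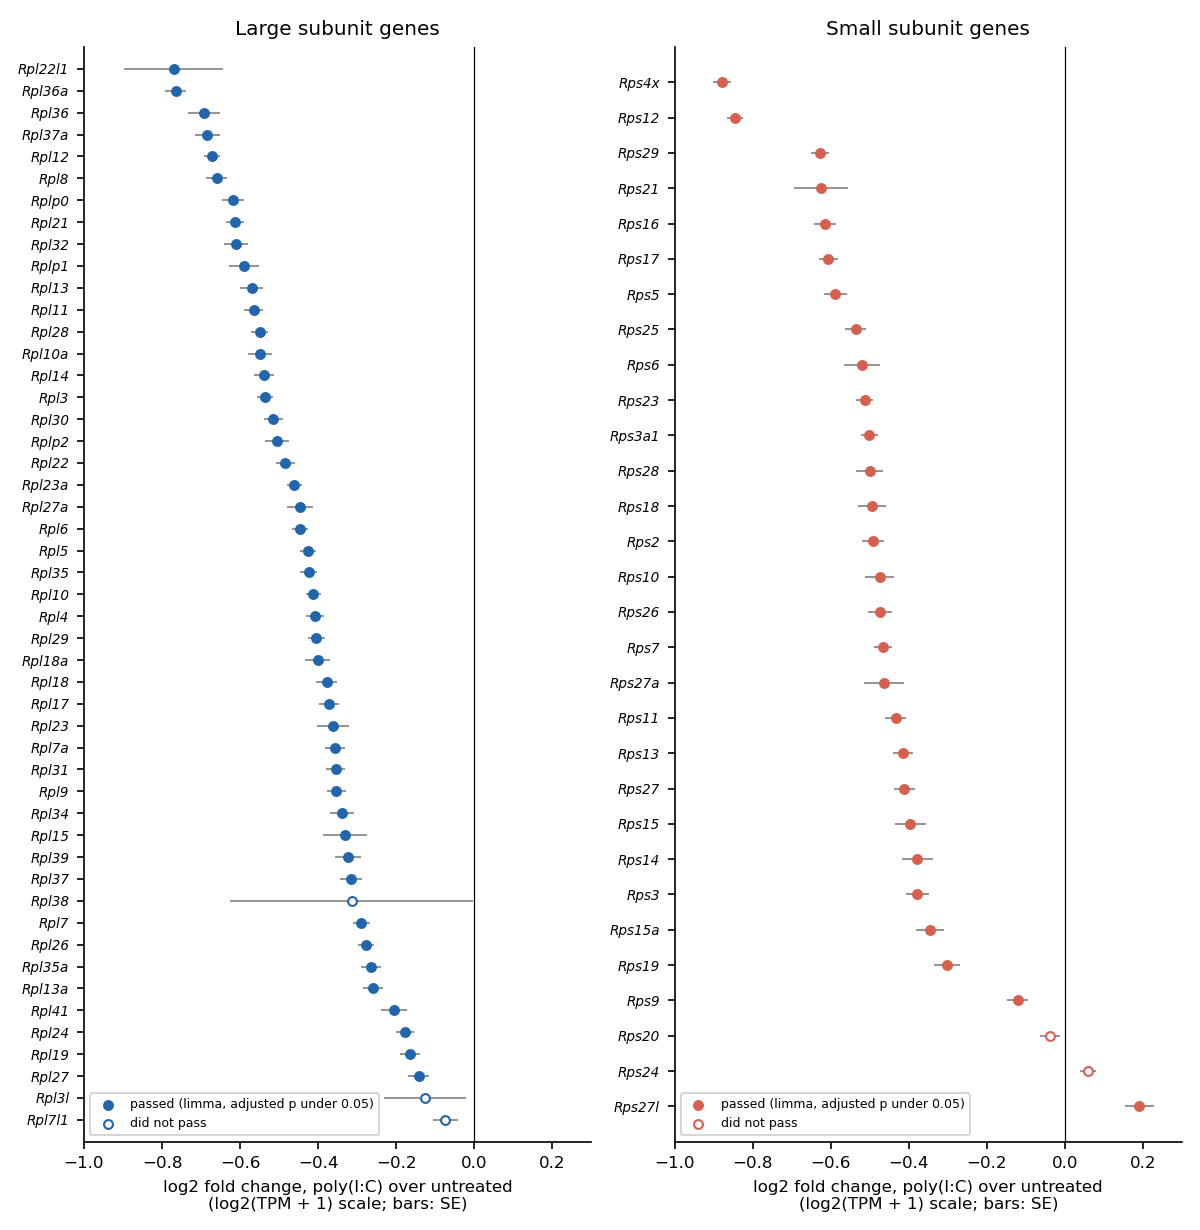
The log2 fold change of poly(I:C) over untreated (log2(TPM + 1) scale, with its SE from limma) is plotted for the 49 large subunit genes on the left and for the small subunit genes on the right, where 1 gene is not shown. Filled points passed at an adjusted p under 0.05; all lie between -0.88 and -0.12 except Rps27l at 0.19.

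Summed over the members, the share of the library was 8.21% and 8.35% in PolyIC01 and PolyIC02, against 11.2% and 11.5% in NT01 and NT02. The means were 8.28 ± 0.1002% in treated and 11.4 ± 0.211% in untreated cells (SD, n = 2 libraries per group here and below), a difference of -3.09 percentage points. The 2 groups lay well apart relative to their spread, although the smallest two-sided p that an exact permutation test allows with 2 libraries per group is 0.333. The number of members among the 50 most abundant genes was 7 and 8 in the treated libraries, against 20 and 22 in the untreated ones.

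Both subunits fell, and their balance moved little. The large subunit had 46 falls among 49 genes and 3 that did not pass (median log2 fold change -0.41), and none of its members had a value above -0.07. The small subunit had 28 falls, 1 rise and 2 that did not pass among 31 genes (median -0.47). The shares that fell were 93.9% of the large and 90.3% of the small subunit genes. Over all tested genes 32.4% fell and 28.4% rose, with a median of -0.02. The summed level of the large subunit genes was 4.91 ± 0.0494% of the library in treated and 6.64 ± 0.109% in untreated cells, a change of -26.0%. That of the small subunit genes was 3.37 ± 0.0508% in treated and 4.73 ± 0.103% in untreated cells, a change of -28.8%. The ratio of large to small subunit sums was 1.46 and 1.45 in the treated libraries and 1.41 and 1.40 in the untreated ones, so the groups did not overlap but differed by 3.94%. The difference between the subunits was not tested.

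**Figure D3:**
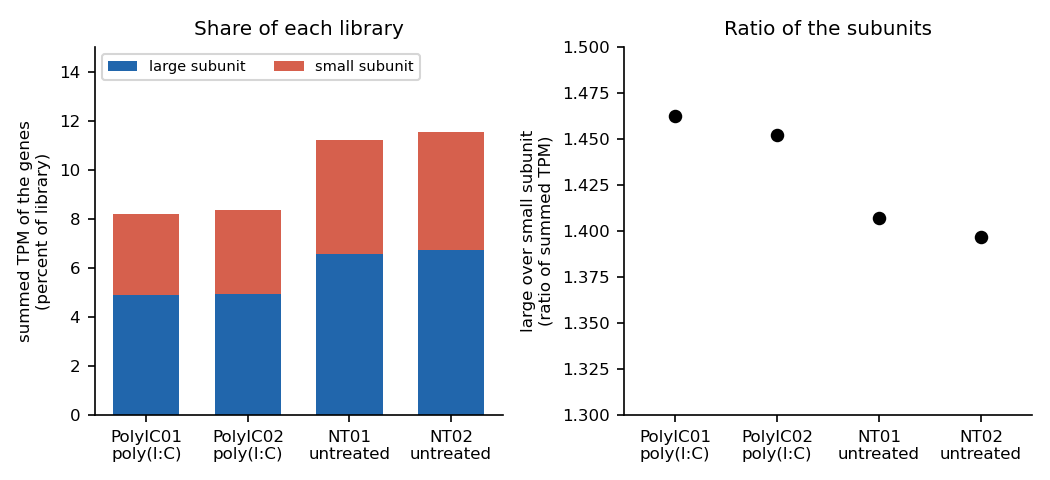
Left, the summed TPM of the large (blue) and small (red) subunit genes as a percent of each library, treated libraries first; right, the ratio of the sums on an axis that does not start at 0. The treated libraries hold 8.21% and 8.35% against 11.2% and 11.5%, and the ratio is 1.46 and 1.45 against 1.41 and 1.40.

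The deepest falls were those of Rps4x and Rps12, followed by large subunit genes. Rps4x, the gene of the small subunit protein eS4 at chrX:102184941-102189391 (GRCm38, RefSeq annotation), had 893 and 873 TPM in treated cells and 1628 and 1618 TPM in untreated cells. Its level fell by 45.6% (log2 fold change -0.88 ± 0.023 SE; limma, adjusted p = 3.81e-06). Rps12, a small subunit gene at chr10:23785183-23787383, had 1515 and 1509 TPM in treated and 2694 and 2743 TPM in untreated cells (-0.85 ± 0.021 SE; adjusted p = 3.30e-06). Neither gene's treated libraries came near its untreated ones.

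Among large subunit genes the largest falls were in Rpl22l1, Rpl36a, Rpl36 and Rpl37a. The X-linked gene Rpl36a had 439.8 and 432 TPM in treated and 731 and 753 TPM in untreated cells (log2 fold change -0.76 ± 0.026 SE; limma, adjusted p = 9.82e-06). Rpl36 had 545 and 565 TPM in treated and 865 and 931 TPM in untreated cells (-0.69, SE 0.042), and Rpl37a had 694 and 717 TPM in treated and 1107 and 1161 TPM in untreated cells (-0.68, SE 0.032). Their treated and untreated libraries did not overlap. The other X-linked members fell less: Rpl10, whose protein completes the large subunit near its catalytic centre, by 24.9%, and Rpl39, a very small protein of the exit tunnel, by 20.1%.

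One member rose. Rps27l, a paralog of Rps27 known as a target of p53 and lying at chr9:66944624-66949522, had 455 and 429 TPM in treated and 379.8 and 394 TPM in untreated cells (log2 fold change 0.19 ± 0.038 SE; limma, adjusted p = 0.00693). Both treated libraries were above both untreated ones. The call was lost when genes with low values were not filtered out (adjusted p = 0.273) and held under the other alternatives. Its parent Rps27 fell, with 1366 and 1395 TPM in treated and 1803 and 1870 TPM in untreated cells (-0.41, SE 0.027, adjusted p = 8.69e-05). Rps27l thus stood at 33.3% and 30.8% of the level of Rps27 in the treated libraries and at 21.1% in both untreated ones. These percentages use the summed level of Rps27, of which a non-coding RefSeq transcript held 45.6% to 47.2% in each library.

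The 5 genes that did not pass were Rps24, Rps20, Rpl7l1, Rpl3l and Rpl38. Rps24, of the small subunit, had 621 and 622 TPM in treated and 595 and 598 TPM in untreated cells (log2 fold change 0.06 ± 0.022 SE; limma, adjusted p = 0.0594). Rps20, also of the small subunit, had 177 and 179 TPM in treated and 181 and 185 TPM in untreated cells (-0.04, SE 0.026, adjusted p = 0.254). Neither passed, although the libraries of the groups did not overlap, and both fold changes lay above all small subunit members other than Rps27l. Rpl38, a large subunit gene known for patterning of the mouse skeleton, was the only member whose groups overlapped, with 123 and 170.3 TPM in treated and 229 and 142 TPM in untreated cells (-0.31, SE 0.312, adjusted p = 0.442). One of its curated transcripts was at 57.6 and 121 TPM in treated and 141 and 47.1 TPM in untreated libraries, a wider range in TPM than those of its other transcripts.

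**Figure D4:**
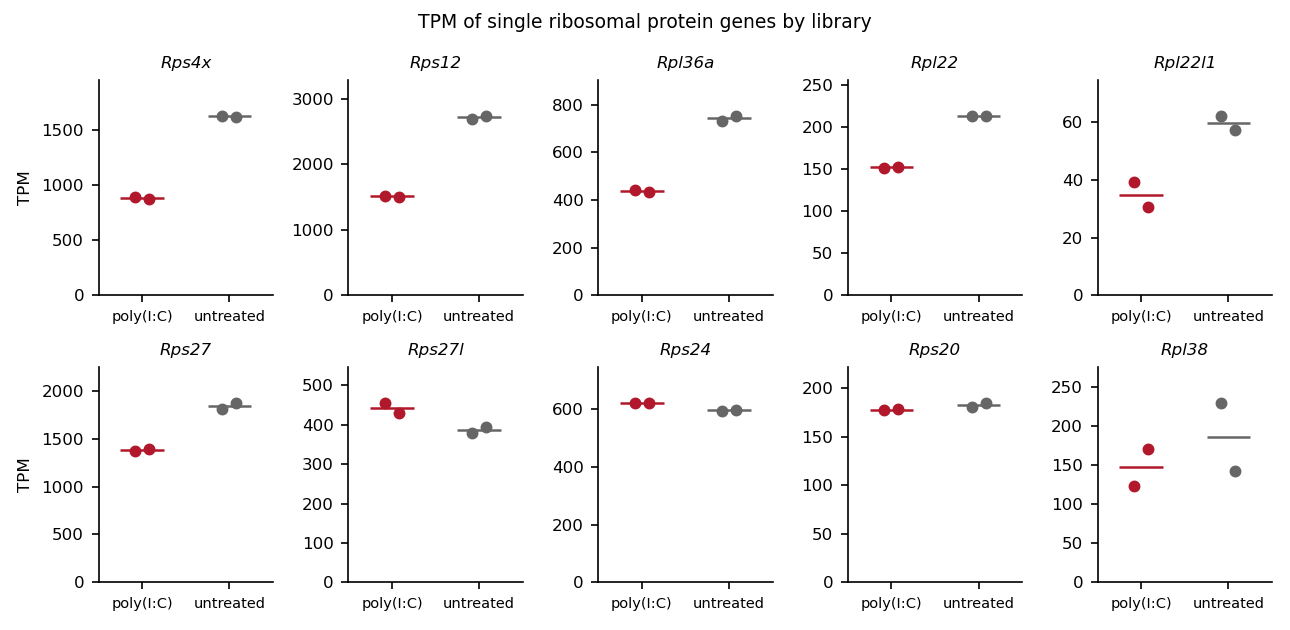
TPM of 10 members in each library (points) with the mean of each group (lines), poly(I:C) left and untreated right, on axes that start at 0. Rps27l is higher in treated cells, Rps24 and Rps20 lie close together, Rpl38 overlaps between groups, and the other 6 are lower in treated cells in every library.

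Other paralogs did not share a direction relative to their parents. Rpl22l1, whose mRNA is known in mouse to be repressed by the protein of its parent Rpl22, had 39.2 and 30.6 TPM in treated and 62.3 and 57.4 TPM in untreated cells (log2 fold change -0.77 ± 0.126 SE; limma, adjusted p = 0.00596). This call was lost without NT01 (adjusted p = 0.109) or without NT02 (adjusted p = 0.0919), and without the filter on low values (adjusted p = 0.198). Rpl22 itself had 152 and 153 TPM in treated and 214 and 213 TPM in untreated cells (-0.48, SE 0.025, adjusted p = 3.61e-05). Rpl22l1 was at 25.8% and 20.05% of Rpl22 in treated and at 29.2% and 27.0% in untreated libraries. Rpl7l1, a paralog of Rpl7, had 73.7 and 75.5 TPM in treated and 78.6 and 78.5 TPM in untreated cells (-0.07, adjusted p = 0.0906), while Rpl7 fell by 18.2% (-0.29, adjusted p = 0.000145). Rpl3l had 1.03 and 0.983 TPM in treated and 1.33 and 1.05 TPM in untreated cells and did not pass (adjusted p = 0.339), while Rpl3 fell by 31.1% (-0.54).

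The genes of the ribosomal stalk, whose proteins recruit elongation factors to the large subunit, fell by similar amounts. Rplp0 had 1781 and 1853 TPM in treated and 2754 and 2822 TPM in untreated cells (log2 fold change -0.62, SE 0.028). Rplp1 had 1964 and 2050 TPM in treated and 2922 and 3122 TPM in untreated cells (-0.59, SE 0.039), and Rplp2 had 523 and 545 TPM in treated and 745 and 772 TPM in untreated cells (-0.51, SE 0.032). All 3 lay beyond the median of the large subunit. Rplp1 and Rplp2 proteins form dimers, and their mRNAs stood at unequal levels in all 4 libraries.

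Several members are also known from other settings, and their values are given singly. Rpl5 and Rpl11, whose proteins bind MDM2 and so stabilise p53 when ribosome assembly fails, had log2 fold changes of -0.43 and -0.56, and Rpl23, which binds MDM2 as well, had -0.36 (adjusted p = 3.48e-05, 2.16e-05 and 0.000790 in limma). Rpl13a, whose protein is known in human myeloid cells to leave the ribosome after interferon gamma and to silence inflammatory mRNAs, fell less than the median, with 1525 and 1559 TPM in treated and 1816 and 1874 TPM in untreated cells (-0.26, SE 0.026, adjusted p = 0.000450). Rps3, also known as a partner of NF-kB, fell to 562 and 572 TPM in treated cells, against 722 and 753 TPM in untreated cells (-0.38, SE 0.029). Rps6, the substrate of the S6 kinases, had 36.4 and 37.6 TPM in treated and 51.9 and 55.0 TPM in untreated cells (-0.52, SE 0.046), and Rps19, mutated in Diamond-Blackfan anaemia in humans, had a log2 fold change of -0.30 (SE 0.034). The ubiquitin fusion gene Rps27a had 362 and 336 TPM in treated and 465 and 499.9 TPM in untreated cells (-0.46, SE 0.051).

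The smallest falls among the genes that passed were those of Rps9 and Rpl27. Rps9, of the small subunit, had 1689 and 1738 TPM in treated and 1830 and 1897 TPM in untreated cells (log2 fold change -0.12, adjusted p = 0.0126 in limma). Rpl27, of the large subunit, had 738 and 721 TPM in treated and 792 and 818 TPM in untreated cells (-0.14, adjusted p = 0.00633). Rpl41, the most abundant member and the shortest ribosomal protein, had 2557 and 2612 TPM in treated and 2893 and 3071 TPM in untreated cells (-0.21, SE 0.033). It was the highest member in both treated libraries but below Rps29 and Rplp1 in both untreated ones. The calls of Rps9 and Rpl27 were lost with libraries centred on their median. They were also lost, in separate fits, with neither trend nor robust moderation and with no filter on low values. That of Rps9 was lost as well without PolyIC01 or without NT02. Rps9, Rpl27 and Rpl41 were singled out after their values were seen, although Rpl41 is also among the 3 most abundant large subunit genes.

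Ribosomal protein genes with other kinds of names fell as well. All 5 listed genes of this kind, whose symbols do not match the pattern, fell, against 32.4% of all tested genes. Rpsa, Fau, Rpl36al and Rack1 are among them. Rpsa, a small subunit gene also known as the laminin receptor, had 1052 and 1079 TPM in treated and 1493 and 1519.6 TPM in untreated cells (log2 fold change -0.50, SE 0.024). Rack1, the signalling scaffold on the small subunit, had a log2 fold change of -0.48. Fau, which joins a ubiquitin-like protein to a small subunit protein, had 2174 and 2236 TPM in treated and 2521 and 2676 TPM in untreated cells (-0.24). Rpl36al, a close copy of Rpl36a with which it may share reads, had a log2 fold change of -0.19, against -0.76 for Rpl36a, and stood at 238% and 245% of Rpl36a in treated and at 162% and 163% in untreated libraries.

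Lists of genes around the ribosome differed in how many of their members fell, and are set against the 32.4% of all tested genes that fell and the 28.4% that rose. All 6 elongation factor genes fell, with a median log2 fold change of -0.42, among them Eef1a1, which brings aminoacyl-tRNA to the ribosome (5722 and 5765 TPM in treated, 7339 and 7426 TPM in untreated cells, -0.36). All 5 other genes of known 5′TOP mRNAs fell, with a median of -0.19, from -0.42 for Hnrnpa1 to -0.13 for Pabpc1, the poly(A)-binding protein. Initiation factors were mixed, with 16 falls (45.7%), 9 rises (25.7%) and 10 that did not pass among 35 genes (median -0.07). The largest change there was a rise of Eif6, which keeps free large subunits from joining small ones (245 and 251 TPM in treated, 172 and 179 TPM in untreated cells, 0.50, adjusted p = 7.86e-05 in limma).

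RNA polymerase I and ribosome assembly had 45 falls (52.9%), 12 rises (14.1%) and 28 that did not pass among 85 genes (median log2 fold change -0.17). The pseudouridine synthase gene Dkc1 (-0.73), Lyar (-0.72) and Ubtf, which activates RNA polymerase I (-0.72), fell most among those that passed. Of 7 chaperone genes of single ribosomal proteins 3 fell (42.9%) and 4 did not pass, led by Tsr2, which escorts the protein of Rps26 (-0.41). Of 17 regulators of 5′TOP translation 6 fell (35.3%) and 5 rose (29.4%), shares near those of all tested genes. Pdcd4, an inhibitor of the initiation helicase, had 4.11 and 4.13 TPM in treated and 12.3 and 12.1 TPM in untreated cells (-1.37), and Larp1 rose to 43.6 and 39.4 TPM in treated cells, against 32.4 and 29.96 TPM in untreated cells (0.40, adjusted p = 0.00341). Of 11 tested genes of ribosome surveillance 3 rose (27.3%) and 2 fell (18.2%), and Ascc3, a helicase that takes collided ribosomes apart, rose most (22.5 and 22.2 TPM in treated, 10.7 and 9.50 TPM in untreated cells, 1.07). Mitochondrial ribosomal protein genes had 29 falls among 78 (37.2%, near the 32.4% of all genes), 17 rises and 32 that did not pass (median -0.10).

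**Figure D5:**
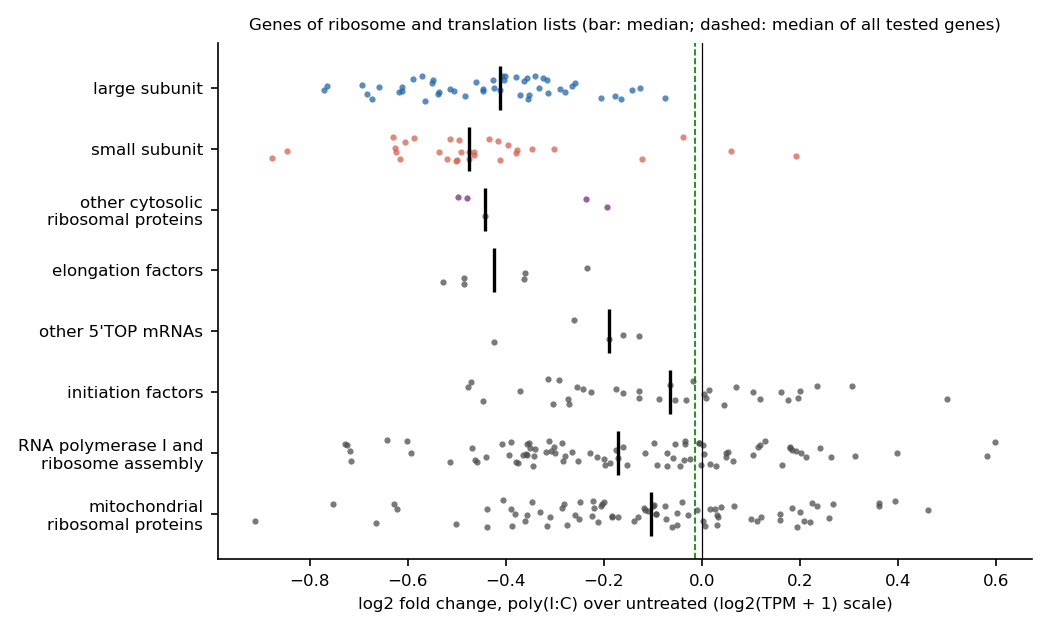
Each point is 1 tested gene of the named list, at its log2 fold change of poly(I:C) over untreated (log2(TPM + 1) scale); bars are list medians and the dashed line is the median of all tested genes (-0.02). Large (-0.41) and small (-0.47) subunit genes, the 5 differently named ribosomal protein genes (-0.44) and elongation factors (-0.42) lie together, while initiation factors (-0.07) and mitochondrial ribosomal proteins (-0.10) spread around 0.

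How the deposited values divide reads among copies bears on single members. The table holds 122 transcripts of the 80 genes, and in 67 genes the leading transcript held at least 90% of the gene's TPM in every library, while predicted transcripts held 4.76% of the members' TPM. Rps24, known for forms that differ in their last exons, was listed almost wholly as 1 of its 3 curated transcripts, which held 100% in both untreated libraries and 99.98% in the treated ones. In the GENCODE M21 transcripts, a median of 45.9% of the 31-base words of a member also occurred in transcripts of other genes, pseudogenes included, and the share ran from 0% for Rpl3l to 99.0% for Rpl35. Words were pooled over all protein-coding transcripts of a member there, so the percent also depends on how long those are. The deposited values are per RefSeq transcript, so the copies counted here need not be those among which reads were divided. Rps15a shared 439 of 6021 words and Rps20 398 of 3676. The members were split at 25%, a limit chosen after the data were seen. The 18 with a lower percent had a median log2 fold change of -0.34, with 13 falls (72.2%) and 1 rise (5.56%). The other 62 had -0.47, with 61 falls (98.4%) and 0 rises. Over all tested genes 32.4% fell and 28.4% rose. Rps27l (22.9%), Rps24 (21.3%), Rps20 (10.8%) and Rpl7l1 (17.8%) are in the first set, and Rps4x (78.4%) and Rps12 (69.6%) in the second. Over the 80 genes, Spearman's rho of the log2 fold change with the shared percent was -0.42, a description, and the part of shared reads in the differences between members was not tested. Rpl15, Rps6 and Rps15a, listed at only 22.6 to 55.5 TPM, shared 27.4%, 84.9% and 7.29% of their words, and 20662 transcripts with no symbol, which held 7.84% to 8.19% of each library, were left out.

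The promoters of members were compared because the genes moved together. RefSeq windows (GRCm38.p6) of 300 bases, from 250 before to 50 after the annotated start, were found for 60 members. A 5′TOP start, taken as C at the first base followed by 4 or more pyrimidines, was present in 12 of 60 (20%). It was present in 2.49% of 27025 windows of all genes. The rule reads the annotated first base alone and misses a tract that lies some bases away. A member without a match is therefore not shown to lack a 5′TOP. A run of at least 8 pyrimidines within 20 bases of the start, a rule chosen after the windows were seen, was present in 28 (46.7%) and in 15.9% of all windows. The ETS core CCGGAA, on either strand, was in 30 (50%) against 15.2% of all windows, and also in 56.5% of 69 windows of mitochondrial ribosomal protein genes, none of which had the 5′TOP start. The YY1 letters AAGATGG, on either strand, were in 9 (15%) against 6.48% of all windows and 18.8% of those of mitochondrial ribosomal protein genes, and the TATA letters TATAAA, on either strand, in 6 (10%) against 14.2% of all windows. Windows can hold several of these motifs, and overlaps between them were not removed; a match is a description of the sequence.

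The 12 members that matched the 5′TOP rule had a median log2 fold change of -0.48 and the 48 that did not match it -0.41. The medians with and without the pyrimidine run were -0.42 and -0.43, those with and without the ETS letters were both -0.42, those for YY1 were -0.36 and -0.43, and those for TATA were -0.56 (6 members) and -0.41. These differences were not tested. The annotated start that each window is built on was the 5′ end of the gene's RefSeq span in 50 of 60 members. Among those printed it lay 174 bases inside the span in Rps12 and 1462 bases inside it in Rps27l. Bases there are counted from this annotated start, not from the end of the span. The start used in these cells was not measured. The windows of 6 members are given from 60 bases before to 20 after the annotated start, 5′ to 3′. Runs of at least 8 pyrimidines are in capitals. Rps27, Rps6 and Rpl15 show a 5′TOP start. Rps12 is among the deepest falls and has its run from base 9 after the annotated start. Rps24 and Rps27l are the members with positive fold changes.
Rps27 (chr3:90213629-90213708, minus strand): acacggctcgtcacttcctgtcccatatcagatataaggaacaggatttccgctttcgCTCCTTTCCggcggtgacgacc
Rps6 (chr4:86857348-86857427, minus strand): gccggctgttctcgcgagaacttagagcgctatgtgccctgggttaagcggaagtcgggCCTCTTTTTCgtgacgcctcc
Rpl15 (chr14:18270967-18271046, minus strand): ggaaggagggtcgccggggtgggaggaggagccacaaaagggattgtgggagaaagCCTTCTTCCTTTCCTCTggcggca
Rps12 (chr10:23787190-23787269, minus strand): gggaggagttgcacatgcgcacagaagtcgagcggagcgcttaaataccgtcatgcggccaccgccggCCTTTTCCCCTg
Rps24 (chr14:24490618-24490697, plus strand): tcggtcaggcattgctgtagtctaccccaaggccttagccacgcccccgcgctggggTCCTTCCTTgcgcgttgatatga
Rps27l (chr9:66946026-66946105, plus strand): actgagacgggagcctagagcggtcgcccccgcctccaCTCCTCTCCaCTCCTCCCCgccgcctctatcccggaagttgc
In Rps27, Rps6 and Rpl15 the run spans the first base of the transcript, as it does in Rps24, where the first base is not C. In Rps27l the runs begin 22 and 12 bases before the start, and the ETS letters ccggaa begin at base 10 after it. In Rps27 the same letters lie on the opposite strand from base 4, across the end of its run. Binding of a factor was not measured here.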

How the data were processed

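Polyadenylated RNA was sequenced from directional libraries (NEBNext Ultra II), per the labels' protocols. GRCm38 is the build in the submitters' processing notes, which also list kallisto 0.42.4 and bcl2fastq 2.20.0.422. The authors deposited 1 table, named as FPKM, whose columns each sum to 1000000, so these deposited values per RefSeq transcript were read as TPM, which keeps no depth. Of 6 value columns 2 were not used in any step, because the header has 5 names.

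Transcripts were matched without version to the RefSeq gene table (GRCm38.p6): 86722 of 107384 (80.8%) matched, with 91.8% to 92.2% of the TPM, and were summed to 32903 symbols. The 12520 genes averaging 0.5 TPM or more were tested as log2(TPM + 1) with limma 3.58.1 in R 4.3.3 (trend and robust moderation, 2 residual degrees of freedom, Benjamini-Hochberg over all tested genes), a fit also tested on simulated data. Python 3.11.15, pandas 2.3.3 and matplotlib 3.10.9 made tables and plots. Shared words were counted on either strand in GENCODE M21 transcripts, with 31 bases a word.

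Values of some single genes are not reported here. Members and gene lists were chosen with earlier results of these data known. Named are the 6 largest rises and falls that passed, paralogs and parents, stalk and ubiquitin fusion genes, members known outside the ribosome, Rps24, the 3 most abundant per subunit, those nearest the limit, and up to 3 genes per other list. The alternatives were another pseudocount, filter, moderation or scaling, curated transcripts only, pseudogenes added, and each library left out. Use of strand in the authors' quantification: not given in the sources used here.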

Additional observations from a re-analysis of the deposited data

How the results depend on the processing

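No paired analysis was possible because the shifted header leaves all replicate numbers but that of NT01 uncertain. The 74 falls and 1 rise (Rps27l) were the same genes with pseudocounts of 0.1 or 0.5, a limit of 5 TPM, curated transcripts only and pseudogenes added. With libraries centred on their median, or with no trend and robust moderation, 72 fell, without Rps9 and Rpl27. With values rescaled over the genes that are not members 76 fell in limma, the additional ones being Rpl7l1 (adjusted p = 0.0147) and Rps20 (adjusted p = 0.0245). The medians moved to -0.50 for all members, -0.47 for the large and -0.53 for the small subunit. This scaling by itself lowers the treated values of every gene relative to the untreated ones. With it 4608 of 12842 tested genes fell, against 4062 of 12520 in the main fit. The median of all tested genes moved from -0.02 to -0.06. With no filter on low values, which adds genes listed near 0 to the fit, 17 members fell and 0 rose in limma (73 and 1 at an unadjusted p under 0.05), at the same fold changes; 136 of all 32903 genes then fell. With curated transcripts only the median of the members was -0.46. Leaving out each library in turn gave 72 to 74 falls and medians of -0.46 to -0.43 for all members, -0.44 to -0.41 for the large and -0.52 to -0.45 for the small subunit. The lone library of a group was then assumed to vary like the others. Of 454 values recomputed for 35 named members, 422 stayed on their side of the threshold, 30 lost their call, 2 gained one and 0 changed sign after passing. With 2 libraries per group and no depth, differences as small as those of Rps24 and Rps20 could not be settled here.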
